A study of Mus musculus with 8 samples.

Results

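Vegfa, Vegfb, Vegfc, Pgf, Angpt1, Angpt2 and Angptl4 encode secreted proteins that act on blood and lymph vessels, and Hif1a encodes the oxygen-regulated subunit of a transcription factor that acts on several of them. These 8 genes were followed in mouse ovarian tumours 6 h after treatment with AZD1480, an inhibitor of the kinases JAK1 and JAK2. They were found as the spots other than controls that carry their symbols in the array files, and 9 probes matched, 2 of them for Vegfa and 1 for each other gene. All 9 were among the 28329 probes tested, whose symbols name 19778 genes. A probe named Ang2 in the files carries the accession of an angiogenin gene, which encodes a secreted ribonuclease, and was left out.

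The AZD1480 group was 4 mice given 30 mg/kg AZD1480, and the vehicle group was 4 mice given the vehicle alone. Every mouse was of genotype C57BL/6JTgMISIIR-TAg, in which the MISIIR promoter (that of Amhr2, active in the female reproductive tract) drives the SV40 T antigen, so the transgene was shared by both groups, and tumours measured about 500 mm3. Age is not given in the labels. Total RNA of each tumour was labelled with Cy3 and read on 1 Agilent array. Each of 2 slides held 2 AZD1480 and 2 vehicle arrays, replicates 1 and 2 of each group on slide 1 and replicates 3 and 4 on slide 2.

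The VEGF proteins and placental growth factor bind receptor tyrosine kinases on endothelial cells: VEGF-A acts mainly through KDR (VEGFR2), VEGF-B and placental growth factor through FLT1 (VEGFR1), and VEGF-C through FLT4 (VEGFR3) on lymphatic endothelium. The angiopoietins bind the endothelial receptor TEK (Tie2), where ANGPT1, largely from pericytes and other mural cells, stabilises vessels and ANGPT2, stored in endothelial cells, can oppose it. Low oxygen stabilises HIF-1α protein, which with its partner ARNT raises transcription of Vegfa, Angptl4 and genes of glycolysis. STAT3, which the JAK kinases activate, is also known to act on the Vegfa gene.

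Levels are given as log2 processed intensity minus the array's 75th percentile, so 0 is that percentile. They serve to compare one probe between arrays and not one probe with another. All 9 probes were well above background on all 8 arrays, and none was saturated. In the extract of a whole tumour, fewer cells of a type and less RNA per cell cannot be told apart.

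AZD1480 replicate 1 stood apart from the other tumours. Its median Pearson correlation with the other arrays over all probes was 0.896, against 0.960 to 0.974 for the others. The mean level of 12 oviduct ciliated cell markers ran from -4.50 to 1.63 in the AZD1480 group, lowest in replicate 1, against 1.45 to 2.05 in the vehicle group. All 12 had their lowest level in that tumour, as did 12 of 13 macrophage and monocyte markers. As a check of the tissue, all 10 epithelial markers were measured, 7 of them well above background on all 8 arrays and 3 on 7 arrays. Their mean level ran from -1.13 to -0.07 in AZD1480 tumours and from -1.03 to 1.48 in vehicle tumours. Of 10 granulosa and luteal markers 6 were measured, while Cyp19a1, Fshr, Cyp11a1 and Lhcgr were too dim. The mean of those 6 ran from -3.25 to 1.93 in AZD1480 tumours, highest in replicate 1, and from -3.44 to 1.02 in vehicle tumours. Of these markers, Inhba was well above background on 7 arrays and Hsd3b1 on only 4, and Hsd3b1 ran from -9.65 to 3.98 over the 8 tumours. The member results below are therefore also given without AZD1480 replicate 1.

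The 2 Vegfa probes sit at different places of the gene, so each checks the other. They are called upstream and downstream here, and the downstream one, nearer the 3′ end, lies at chr17:46154387-46154446 (mm9, minus strand). Whether a probe lies in an exon or a UTR was not analysed here, since the gene annotation at hand is on another build. The other probes, also on mm9, lie at chr19:7057245-7057304, minus strand (Vegfb), chr8:55271533-55271592, plus strand (Vegfc), chr15:42256335-42256394, minus strand (Angpt1) and chr8:18691458-18691517, minus strand (Angpt2). Those of Angptl4 and Hif1a lie at chr17:33911880-33911939, minus strand, and chr12:75047269-75047329, plus strand. The Pgf probe, 60 bases long, is placed at chr12:86508335-86510337, minus strand, a span of 2003 bases.

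The promoters of the VEGF genes are shown because the ligands with the largest and the smallest group differences were Vegfa and Vegfb. Windows of 250 bases before the annotated start were read from RefSeq (GRCm38.p6), where 5 of the 8 members had 7 windows, 2 each for Vegfa and Pgf. Windows for Angpt1, Angpt2 and Angptl4 were not used here. Both strands were searched for the HIF core ACGTG or GCGTG, the STAT core TTCNNNGAA and the GC box GGGCGG. Capitals mark these matches on either strand in Vegfa, chr17:46032378-46032627 (minus strand), and Vegfb, chr19:6987652-6987901 (minus strand).

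Vegfa: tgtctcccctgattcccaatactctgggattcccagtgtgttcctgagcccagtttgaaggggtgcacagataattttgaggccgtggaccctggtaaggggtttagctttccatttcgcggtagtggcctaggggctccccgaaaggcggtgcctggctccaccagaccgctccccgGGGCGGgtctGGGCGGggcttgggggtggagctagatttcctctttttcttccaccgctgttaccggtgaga

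Vegfb: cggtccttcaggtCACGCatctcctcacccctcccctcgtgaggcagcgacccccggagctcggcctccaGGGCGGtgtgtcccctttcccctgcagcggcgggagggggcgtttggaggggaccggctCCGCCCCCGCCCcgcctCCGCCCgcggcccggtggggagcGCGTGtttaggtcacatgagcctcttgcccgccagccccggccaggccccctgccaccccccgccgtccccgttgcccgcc

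The Vegfa window shown held 2 GC boxes and no HIF core, while the other Vegfa window held 1 ACGTG, 1 GCGTG and 1 GC box. The Vegfb window held 2 GCGTG and 4 GC boxes, of which a pair abut. The Hif1a window held 3 ACGTG matches, of which a pair overlap on opposite strands. The STAT core was in 0 of the 7 windows. Of all 32851 mouse windows of this length, 16.6% held ACGTG, 28.2% GCGTG, 7.02% the STAT core and 32.7% the GC box. A match is a description of letters and not a site that was measured.

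Across the 9 probes no difference between AZD1480 and vehicle tumours passed the test. With limma's moderated test adjusted by the Benjamini-Hochberg method over all 28329 probes, 0 of 9 passed an adjusted p of 0.05, where 0% of all probes did, and their adjusted p-values ran from 0.953 to 0.991. At an unadjusted p under 0.05 there were 0 of 9, where 3.64% of all probes were. The AZD1480 mean was above the vehicle mean for 6 of 9 probes, against 58.1% of all probes. The median log2 difference was 0.33 over the members and 0.058 over all probes. The groups of 4 overlapped for all 9 probes, while 2.61% of all probes had groups that did not. At least 2-fold higher in AZD1480 tumours were 2 of 9, both of them Vegfa probes, against 1.97% of all probes, and at least 2-fold different either way were the same 2, against 6.61%. Without AZD1480 replicate 1 no member reached that fold, against 2% of all probes, and the median of the 9 was 0.18. In that comparison 0 of 9 had an unadjusted p under 0.05, where 4.11% of all probes did, and groups that did not overlap were seen for 0 of 9, where 4.68% of all probes had them.

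**Figure D1:**
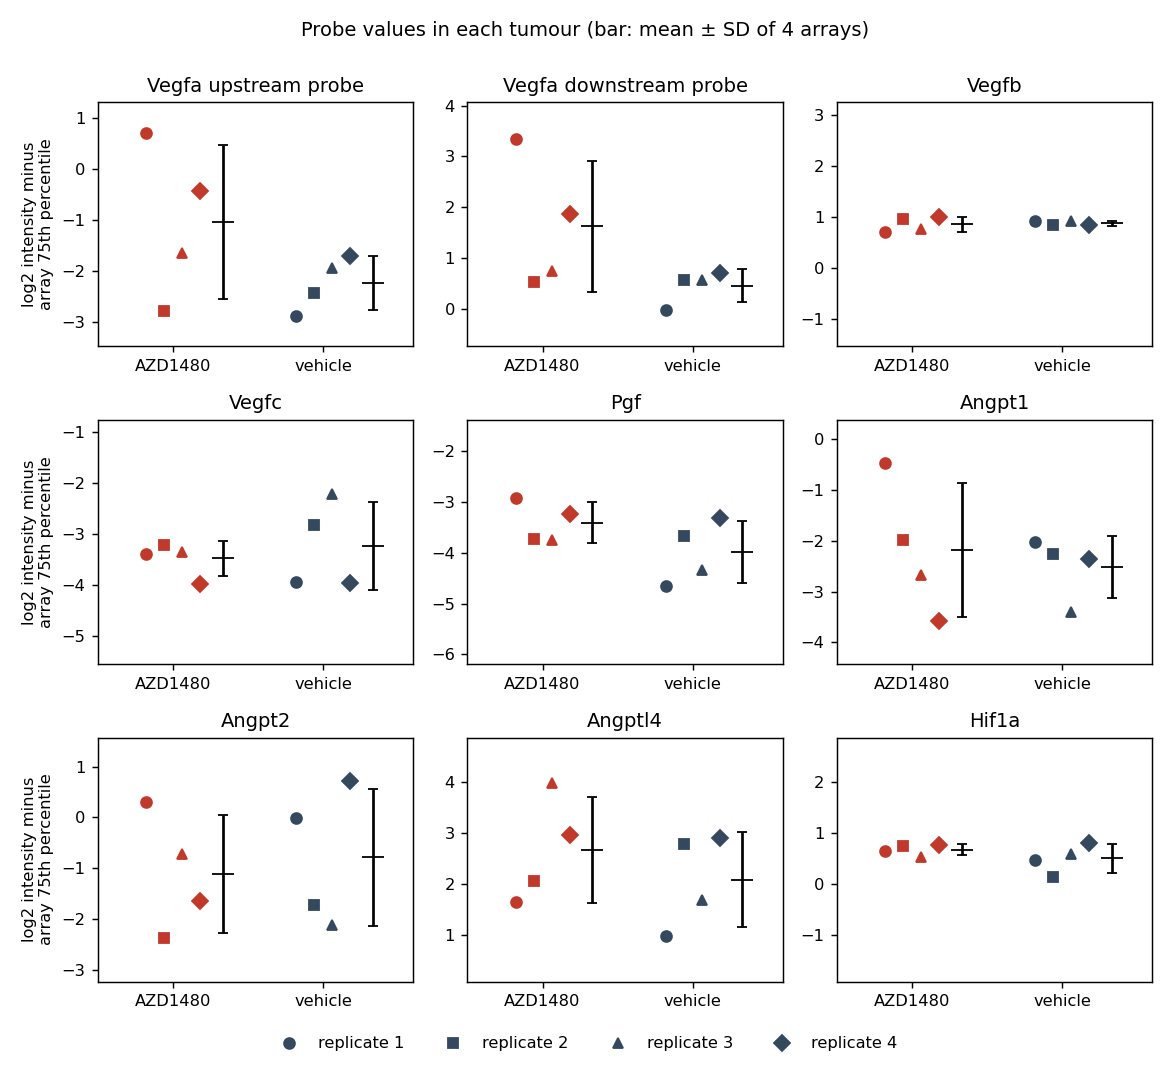
Scaled log2 levels (y axis) of the 9 probes in each of the 8 tumours, 1 panel per probe, with AZD1480 (red) left of vehicle (blue) and every y axis spanning the same log2 height. Symbols mark replicates and bars are the mean with the SD of 4. AZD1480 replicate 1 is the highest point for both Vegfa probes, at 0.72 and 3.35.

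Vegfa, the main angiogenic ligand of the family, was higher on average in AZD1480 tumours with both probes, but the 4 AZD1480 tumours spread widely. The upstream probe read 0.72, -2.79, -1.64 and -0.44 in AZD1480 replicates 1 to 4, against -2.88, -2.42, -1.94 and -1.70 in vehicle replicates 1 to 4. All but 1 of the AZD1480 tumours lay above every vehicle tumour and replicate 2 lay within the vehicle range. The means were -1.04 ± 1.51 in AZD1480 and -2.24 ± 0.53 in vehicle tumours (SD, n = 4 each), a log2 difference of 1.20 ± 0.71 (moderated SE). That is 2.30-fold, with a 95% interval of 0.739 to 7.14-fold. The exact two-sided permutation test over the 70 ways to draw 4 of 8 arrays gave p = 0.2, where 0.0286 is the smallest p this design can give.

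The downstream Vegfa probe gave the same picture. It read 3.35, 0.54, 0.74 and 1.87 in AZD1480 tumours, against -0.02, 0.58, 0.57 and 0.70 in vehicle tumours. Replicates 1 and 4 of AZD1480 stood clear of all vehicle tumours, replicate 3 lay just above them and replicate 2 among them. The difference was 1.17 ± 0.59, or 2.25-fold (0.870 to 5.80-fold), with an unadjusted limma p of 0.0846 and an exact permutation p of 0.143. The 2 probes moved together over the 8 tumours, with a Pearson r of 0.961, or 0.923 without AZD1480 replicate 1, as a description of probes that share each array. The downstream level minus the upstream level was 2.63, 3.33, 2.39 and 2.31 in AZD1480 tumours and 2.86, 3.00, 2.52 and 2.40 in vehicle tumours. This gap between the probes was thus similar in size in both groups, and its group means differed by -0.033 (exact permutation p = 0.914).

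The Vegfa differences were smaller without AZD1480 replicate 1. Then the upstream probe differed by 0.62 ± 0.56 and the downstream probe by 0.59 ± 0.35, which are 1.53-fold and 1.51-fold, with exact permutation p of 0.4 and 0.2. Within slide 1 the differences were 1.62 and 1.67, and within slide 2, which lacks replicate 1, they were 0.78 and 0.67. Leaving out AZD1480 replicate 2 instead gave 1.78 upstream and 1.53 downstream with unadjusted limma p of 0.0174 and 0.0345, both with an adjusted p of 0.892. Ciliated and macrophage markers were lowest in the tumour where Vegfa was highest, and their part in the Vegfa difference was not tested.

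Pgf, the placental growth factor that binds FLT1, was also higher on average in AZD1480 tumours. It spread less than Vegfa among AZD1480 tumours but more among vehicle tumours, where its SD was 0.61, against 0.53 and 0.33 for the Vegfa probes. It read -2.93, -3.73, -3.75 and -3.23 in AZD1480 tumours, against -4.65, -3.66, -4.34 and -3.32 in vehicle tumours. The ranges overlapped, with vehicle replicates 1 and 3 below all AZD1480 tumours. The log2 difference was 0.58 ± 0.34, or 1.50-fold (0.867 to 2.59-fold), with an exact permutation p of 0.2, and it was 0.42 without AZD1480 replicate 1. Both slides gave the same sign, 0.83 on slide 1 and 0.34 on slide 2. Over the 8 tumours Pgf and the downstream Vegfa probe had a Pearson r of 0.786, the highest of the 28 pairs of members, and 0.750 without AZD1480 replicate 1.

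Vegfb, another FLT1 ligand, was nearly level across the 8 tumours. It read 0.71, 0.95, 0.76 and 1.00 in AZD1480 tumours and 0.92, 0.84, 0.91 and 0.83 in vehicle tumours. The vehicle tumours lay inside the AZD1480 range and differed among themselves by no more than 1.07-fold. Their SD was 0.048, and 0.692% of all probes had a smaller SD among vehicle arrays. The difference of -0.02 ± 0.14 had a 95% interval of 0.786 to 1.23-fold, so a 2-fold difference either way lies outside it (exact permutation p = 0.714). Its sign turned on leaving out AZD1480 replicate 1, to 0.025, or replicate 3, to 0.0081.

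Vegfc, the ligand of lymphatic endothelium, was dim and varied more among vehicle than among AZD1480 tumours. It read -3.39, -3.21, -3.35 and -3.98 in AZD1480 tumours, against -3.95, -2.83, -2.21 and -3.97 in vehicle tumours. The 2 highest tumours were vehicle replicates 3 and 2. The difference was -0.24 ± 0.43, a ratio of 0.845 with a 95% interval of 0.427 to 1.67-fold (exact permutation p = 0.686). It was -0.27 without AZD1480 replicate 1, and leaving out vehicle replicate 3 turned it to 0.10. The other VEGF gene on the array, Vegfd, which shares the receptor FLT4, differed by -0.11 ± 0.81, and by 0.56 without AZD1480 replicate 1, its lowest tumour.

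Angpt1, the TEK agonist, was highest in AZD1480 replicate 1 and did not separate the groups. It read -0.47, -1.99, -2.68 and -3.58 in AZD1480 tumours, against -2.02, -2.26, -3.40 and -2.36 in vehicle tumours. The lowest tumour of all, AZD1480 replicate 4, was also in the AZD1480 group, which spanned 8.65-fold. The difference of 0.33 ± 0.64 (exact permutation p = 0.743) turned to -0.24 without AZD1480 replicate 1, and was 0.92 within slide 1 and -0.25 within slide 2. For the 12 markers of pericytes and smooth muscle, cells known to make Angpt1, the mean level was -1.52 to -0.63 in AZD1480 tumours. It was -1.27 to -0.65 in vehicle tumours. That mean was lowest in AZD1480 replicate 1, where Angpt1 was highest. The markers did not move as 1 group there: 4 of the 12 had their lowest level in that tumour and 2, Des and Mcam, their highest. Which cells made Angpt1 here was not tested.

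Angpt2, the context-dependent TEK ligand of activated endothelium, varied as much within each group as between them. It read 0.31, -2.36, -0.72 and -1.65 in AZD1480 tumours, against -0.01, -1.73, -2.12 and 0.71 in vehicle tumours. The vehicle tumours alone spanned 7.11-fold, and 97.5% of all probes had a smaller SD among vehicle arrays. The difference was -0.32 ± 0.79, a ratio of 0.801 (0.228 to 2.82-fold), with an exact permutation p of 0.743. It was -0.79 without AZD1480 replicate 1, 0.099 without AZD1480 replicate 2 and 0.18 without vehicle replicate 4.

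Angptl4, a secreted inhibitor of lipoprotein lipase that both HIF and PPAR factors induce, was highest in AZD1480 replicate 3. It read 1.64, 2.05, 3.99 and 2.97 in AZD1480 tumours, against 0.96, 2.78, 1.68 and 2.91 in vehicle tumours. Replicates 3 and 4 of AZD1480 lay above all vehicle tumours and the rest lay among them. The difference was 0.58 ± 0.62, or 1.50-fold (0.554 to 4.04-fold), with an exact permutation p of 0.429. It was 0.92 without AZD1480 replicate 1, and it came from slide 2, where it was 1.18, against -0.02 on slide 1. Of 17 PPAR target genes 12 were higher and 5 lower in AZD1480 tumours, with a median log2 difference of 0.14, or -0.086 without AZD1480 replicate 1, against 0.045 over all 19778 genes. The 8 adipocyte markers, cells rich in Angptl4, had a mean level of -4.33 to -2.85 in AZD1480 tumours and of -4.07 to -0.55 in vehicle tumours, and Plin1, Cfd and Lep were well above background on 4 of the 8 arrays. Adipoq and Cidec were too dim to be tested, and the part of adipocytes in the Angptl4 difference was not tested.

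Hif1a messenger RNA was steady. It read 0.64, 0.76, 0.53 and 0.77 in AZD1480 tumours, against 0.47, 0.15, 0.58 and 0.82 in vehicle tumours. The AZD1480 values lay inside the vehicle range. The difference was 0.17 ± 0.18, or 1.13-fold with a 95% interval of 0.844 to 1.50-fold (exact permutation p = 0.314), and it was 0.18 without AZD1480 replicate 1. Vegfb and Hif1a were the 2 members whose intervals excluded a 2-fold difference in either direction. Since HIF-1α is controlled mainly by protein breakdown, this level says nothing of the protein, which was not measured.

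**Figure D2:**
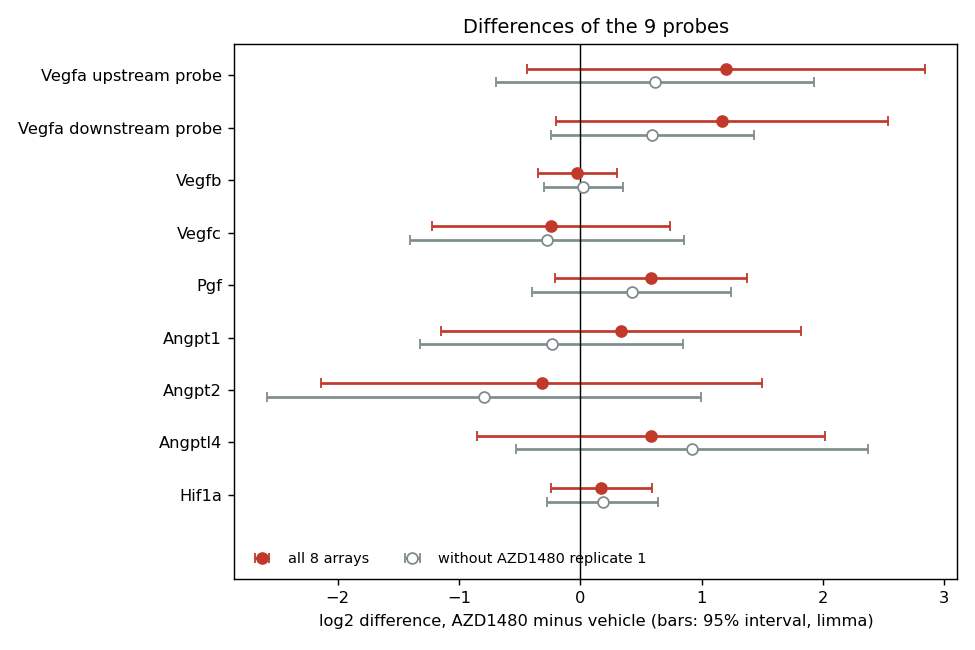
Log2 difference of AZD1480 minus vehicle (x axis) for the 9 probes, with limma's 95% interval, for all 8 arrays (filled) and without AZD1480 replicate 1 (open). Every interval spans 0, and both Vegfa points move from about 1.2 to about 0.6.

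The receptors of these ligands all had lower means in AZD1480 tumours, and none passed the test. Of 7 receptor genes 6 were tested, with 0 higher and 6 lower, while 56.5% of all genes were higher, and their median difference was -0.27, or -0.41 without AZD1480 replicate 1. None was at an unadjusted p under 0.05, where 3.46% of all genes were. Nrp1, a neuropilin coreceptor of VEGF-A, differed by -0.45 ± 0.43, and Nrp2, the coreceptor for VEGF-C, by -0.17 ± 0.47. Tek differed by -0.43 ± 0.34 and its partner Tie1 by -0.20 ± 0.30. Flt1 differed by -0.34 ± 0.32 and Kdr, the main VEGF-A receptor, by -0.07 ± 0.26. AZD1480 replicate 4 held the lowest value of 5 of the 6, and the median was -0.02 within slide 1 and -0.40 within slide 2. Flt4 was too dim to be tested.

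Endothelial markers also had a median below 0, with 6 of 17 higher and 11 lower and a value of -0.15, or -0.034 without AZD1480 replicate 1. Their mean level ran from -1.80 to -0.96 in AZD1480 tumours and from -1.31 to -0.51 in vehicle tumours. The markers with the smallest p were Vwf, the von Willebrand factor of endothelial granules, at -1.12 ± 0.32 and Lyve1, a lymphatic marker, at -1.17 ± 0.37. Vwf read -0.86, -1.18, -1.29 and -1.23 in AZD1480 tumours, below each of 0.09, -0.45, -0.60 and 0.87 in vehicle tumours. Groups of 4 that did not overlap were seen for 2.61% of all probes. Neither Vwf nor Lyve1 passed over all genes, with limma adjusted p of 0.974 for both. Among the 6 higher markers, Sox18 differed by 0.47 ± 0.40, Cdh5 by 0.22 ± 0.36 and Pecam1 by 0.14 ± 0.21. The part of the endothelial markers in the receptor differences was not tested.

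Of 6 angiopoietin relatives tested, 3 were higher and 3 lower, with a median of -0.01, or -0.094 without AZD1480 replicate 1. Angptl1, an orphan relative, read -1.39, -0.37, -1.55 and -0.94 in AZD1480 tumours, against -3.09, -2.99, -1.23 and -1.41 in vehicle tumours. Its 2 low values are the vehicle tumours of slide 1, and the difference of 1.12 ± 0.51 was 2.16 within slide 1 and 0.082 within slide 2. Angptl2 differed by 0.31, Angpt4, another TEK ligand, by 0.29, Angptl8, a regulator of blood lipids, by -0.31, and Angptl6 by -0.43. Angptl7 differed by -0.94 and was well above background on 7 of the 8 arrays.

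The other parts of the oxygen-sensing system showed no common direction. Of 9 genes for HIF subunits and their sensors 5 were higher and 4 lower in AZD1480 tumours, with a median difference of 0.01, or 0.11 without AZD1480 replicate 1. Egln3, a prolyl hydroxylase that HIF itself induces, read 1.01, -2.82, -1.25 and -0.35 in AZD1480 tumours, against -1.27, -2.77, -2.19 and -1.50 in vehicle tumours. As with Vegfa, AZD1480 replicates 1 and 4 were the highest tumours, and the difference of 1.08 ± 0.77 was 0.46 without replicate 1. Hif3a differed by 0.70 and was well above background on 5 of the 8 arrays. Epas1, the HIF-2α subunit, differed by -0.03, Arnt by -0.05, Arnt2 by -0.25 and Hif1an, the asparagine hydroxylase, by -0.02. The other hydroxylases Egln1 and Egln2 differed by 0.22 and 0.01, and Vhl, which marks HIF for breakdown, by 0.23.

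**Figure D3:**
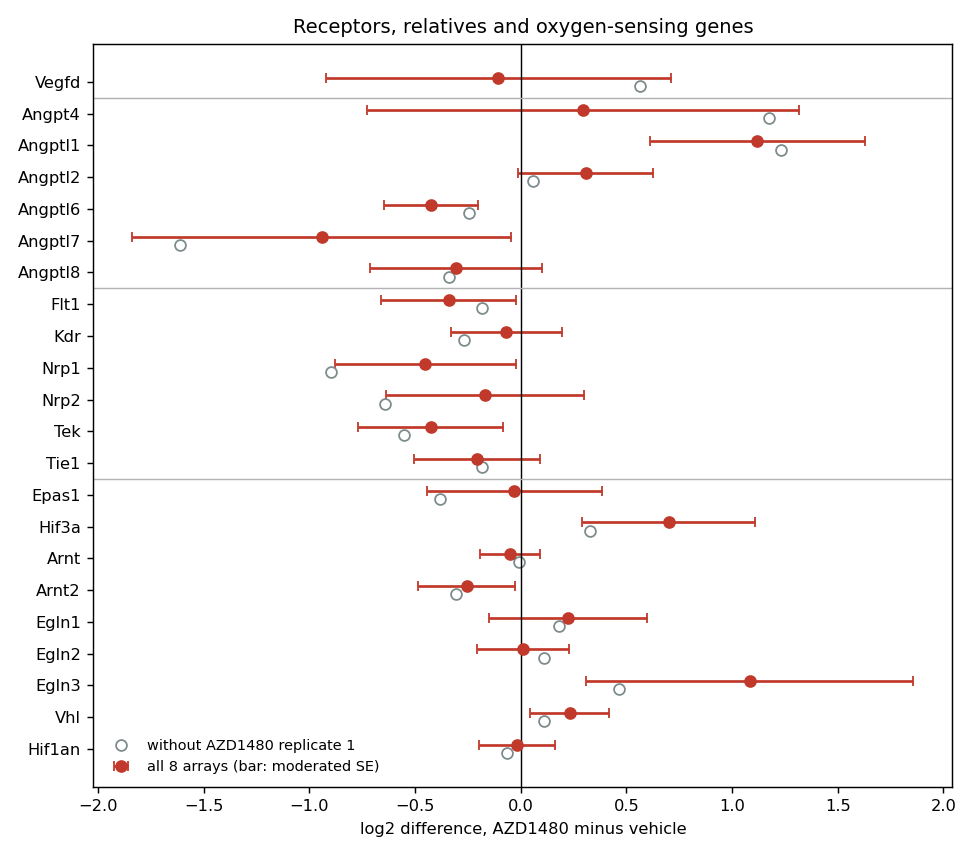
Log2 difference of AZD1480 minus vehicle (x axis) for the other VEGF gene, the angiopoietin relatives, the receptors and the oxygen-sensing genes (rows, in 4 blocks), with filled points and bars for all 8 arrays and the moderated SE, and open points without AZD1480 replicate 1. All 6 receptors lie left of 0, from -0.45 to -0.07, while the other blocks hold genes on both sides except the single Vegfd.

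HIF target genes other than the members were mostly higher in AZD1480 tumours, by small amounts. Of 33 tested, 27 were higher and 6 lower, while 56.5% of all genes were higher. Their median difference was 0.41, against 0.045 over all genes, and it was 0.33 without AZD1480 replicate 1 and 0.31 within each slide. At an unadjusted p under 0.05 were 2 of 33, against 3.46% of all genes, and none passed limma's adjusted test (adjusted p = 0.974 for Pfkfb3 and Higd1a). Pfkfb3, an activator of glycolysis, read 0.43, -0.06, 0.91 and 1.61 in AZD1480 tumours, against -0.78, -1.12, 0.43 and -0.01 in vehicle tumours. AZD1480 replicates 1 and 2 lay below the highest vehicle tumour, replicate 3, so the groups overlapped, and the difference was 1.09 ± 0.46. Higd1a, a mitochondrial protein induced by hypoxia, differed by 0.76 ± 0.31. Ddit4, an inhibitor of mTORC1, differed by 0.98 ± 0.45. The carbonic anhydrase Car9, often used as a hypoxia marker, differed by -0.02 and the glucose transporter Slc2a1 by 0.02. Among the 6 lower genes the largest differences were those of Aldoc, at -0.98 ± 0.82, and Slc2a3, at -0.67 ± 0.54.

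Array by array, the mean of the 33 HIF targets stood 0.34, -0.06, 0.46 and 0.68 from the vehicle mean in AZD1480 tumours, and -0.14, -0.23, 0.07 and 0.30 in vehicle tumours. Within the AZD1480 group, replicate 2 was the lowest for the HIF targets and for both Vegfa probes. Vehicle replicates 1 and 2 were lower still for the HIF targets, and vehicle replicate 4 lay with the AZD1480 tumours. AZD1480 replicate 1, the highest tumour for Vegfa, stood below AZD1480 replicates 3 and 4 for the HIF targets. It held the highest value of 15 of the 33 targets and the lowest of 8. The receptor mean stood 0.26, -0.45, -0.17 and -0.75 from the vehicle mean in AZD1480 tumours, and -0.02, -0.04, -0.04 and 0.10 in vehicle tumours.

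**Figure D4:**
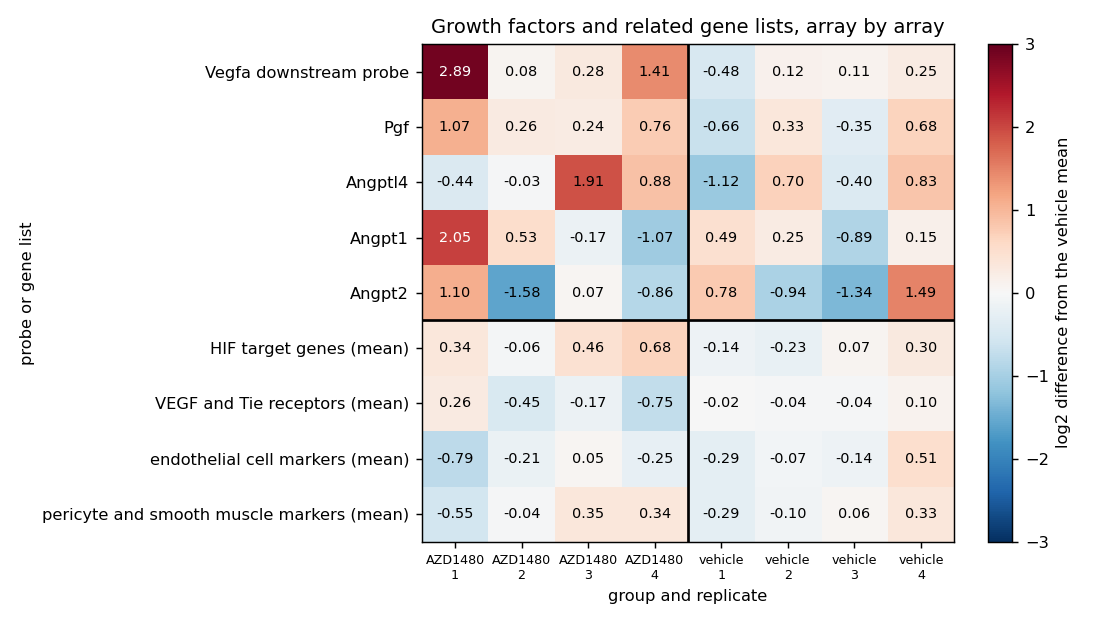
Each cell is the log2 difference of a probe, or of the mean of a gene list, from its vehicle mean (colour and printed value), with the AZD1480 arrays left of the vehicle arrays. AZD1480 replicate 1 is high for Vegfa (2.89), Angpt1 (2.05) and Pgf (1.07), while AZD1480 replicate 3 is high for Angptl4 (1.91).

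Socs3, a readout of the drug's targets, separated the groups, which no member did. This gene, the feedback inhibitor that STAT3 induces, read 0.12, 0.50, 0.75 and 0.03 in AZD1480 tumours, against 1.65, 0.80, 0.93 and 1.38 in vehicle tumours. All 4 AZD1480 tumours lay below all vehicle tumours, where 2.61% of all probes had groups that did not overlap, and the difference was -0.84 ± 0.26 (limma, adjusted p = 0.974 over all genes). Cebpd, a transcription factor downstream of STAT3, differed by -1.34 ± 0.25, Stat3 itself by -0.90 ± 0.26 and Osmr, the oncostatin M receptor, by -1.61 ± 0.53. Of the 11 JAK-STAT3 feedback genes 4 were higher and 7 lower, with a median of -0.18, while 56.5% of all genes were higher. The 4 higher were Socs2 at 0.87 ± 0.47, Pim1 at 0.67 ± 0.40, Il4ra at 0.23 ± 0.66 and Socs1 at 0.06 ± 0.21. An unadjusted p under 0.05 was found for 4 of 11, against 3.46% of all genes. The median was -0.76 without AZD1480 replicate 1.

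Likeness of pattern was described as the Pearson r over the 8 arrays between a member and each named gene tested. Members and clone or model names were left out of the ranking, and the 3 highest are given. Each value is thus picked as 1 of the 3 highest from the named genes among the 19778, over only 8 arrays. What those arrays share, such as AZD1480 replicate 1, enters every one. Vegfa was most like Gramd1a (0.976), Mtss1 (0.976) and Dok7 (0.975). Pgf was most like Foxi3 (0.952), Chmp4b (0.950) and Tmem222 (0.936), and Angptl4 most like Eif5 (0.986), Psd3 (0.963) and Rufy2 (0.963). Angpt1 was most like Sgpl1 (0.978), Tiprl (0.965) and Ddx59 (0.963), and Angpt2 most like Fbxo6 (0.941), Foxk1 (0.936) and Crebl2 (0.927). Vegfb was most like Ppip5k1 (0.961), Grpr (0.956) and Fgf16 (0.956), Vegfc most like Zfp595 (0.948), Cpa1 (0.927) and Zfp456 (0.908), and Hif1a most like Padi2 (0.947), Slx4 (0.920) and Krt87 (0.892). None of these genes stood on the lists of receptors, relatives, oxygen sensors or HIF targets. Without AZD1480 replicate 1 Vegfa and Gramd1a had an r of 0.917. Vegfa and Angpt1 changed sign, with an r of 0.463 over 8 arrays and of -0.726 without that tumour, whereas Vegfa and Hif1a had 0.285 and 0.408.

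Of the other cell types, 10 epithelial markers had 0 higher and 10 lower with a median of -0.71, or -0.48 without AZD1480 replicate 1, and 12 ciliated markers 0 higher and 12 lower with -1.44, or -0.082 without it. Macrophage and monocyte markers had 1 higher and 12 lower with a median of -0.54, or -0.10 without that tumour. The median was -0.41 for 6 granulosa and luteal markers, or -1.65 without AZD1480 replicate 1, and it was 0.38 within slide 1 and -1.20 within slide 2. It was -0.22 for 8 adipocyte markers, or -0.69 without that tumour, and -0.08 for 10 fibroblast markers, or -0.03 without it. For 12 pericyte and smooth muscle markers it was -0.11, or 0.07 without that tumour, and for 3 red blood cell genes 0.05, or -0.33 without it. The pericyte and red blood cell medians thus turn sign with AZD1480 replicate 1. Of 12 glucocorticoid target genes 7 were higher and 5 lower, with a median of 0.08, or 0.15 without AZD1480 replicate 1. Among the pericyte and smooth muscle markers, 5 higher and 7 lower, the smallest p was that of Rgs5, at -0.65 ± 0.23. Among macrophage markers it was that of the Fc receptor Fcgr3, at -0.92 ± 0.24. Neither passed over all genes. Of the higher pericyte and smooth muscle markers, Tagln differed by 0.80 ± 0.71 and Acta2 by 0.74 ± 0.91.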

How the data were processed

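The members and gene lists were chosen with earlier results of these data known. The submitters' processing notes name Agilent Feature Extraction 9.5.3 for the scans. Per the file headers, each spot has a processed intensity, background-subtracted and detrended within its array only. A log2 value table of the authors, whose columns share 1 median and whose offset no source used here states, was an alternative only.

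Here the processed intensity was taken to log2, the array's 75th percentile over spots that are not controls was subtracted, and spots of a probe were averaged without outlier-flagged ones. Probes well above background on at least 4 of 8 arrays were kept. On slide 1 the percentile lay between 4706 and 5795, on slide 2 between 1587 and 2783, and 66.9% to 76.4% of spots were well above background. The fit used limma (version 3.58.1, under R 4.3.3) with treatment as the only term, moderated by eBayes, two-sided and adjusted by Benjamini-Hochberg over all probes, and was tested on simulated data. SEs are limma's moderated SEs. Exact permutation tests ran over all splits of the arrays. A gene of a list was represented by its brightest kept probe, and 17 lists were described by counts and medians with no test. Named were all member probes, the genes of the receptor, relative and oxygen-sensing lists, up to 4 genes of smallest p in other lists, the 3 genes most like each member, and Socs3. Genes named outside that rule, such as Car9, Slc2a1, Aldoc, Slc2a3, Socs2 and Pim1, were chosen after their values were seen. Some items that the rule covers are not reported here. Per the labels, replicates are separate mice. Replicate numbers were not used to pair the samples in the main fit. Alternatives covered background correction, normalization, filters, array weights, slide and each left-out array. The number of arrays limits the precision.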

Additional observations from a re-analysis of the deposited data

How the results depend on the processing

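No alternative brought a member below an adjusted p of 0.05, the smallest being 0.575 (Vegfa downstream probe, limma without AZD1480 replicate 3), and 0 probes passed under any of them. The Vegfa upstream probe kept its sign in 21 of 21 alternatives (0.31 to 1.78). So did the downstream probe in 22 of 22 (0.51 to 1.67) and Pgf in 22 of 22 (0.31 to 0.83). Not all of these alternatives test the sign. The filters on dim probes, keeping outlier-flagged spots, and slide or replicate number as a block over all arrays left these log2 differences unchanged. The gene-level fit also left those of the downstream probe and Pgf unchanged. Leaving out each array in turn gave -0.072 to 0.025 for Vegfb, -0.49 to 0.10 for Vegfc, -0.24 to 0.80 for Angpt1 and -0.79 to 0.18 for Angpt2, so these 4 changed sign. Vegfb also turned to 0.017 with array weights, 0.0034 within slide 2 and 0.030 with slide as a block without AZD1480 replicate 1, an alternative chosen after seeing the data, which took Angpt1 to -0.086. Within slide 1 Vegfc was 0.088 and Angptl4 -0.022. Within slide 2 Angpt1 was -0.25 and Hif1a -0.050. The JAK-STAT3 feedback median was -0.76 without AZD1480 replicate 1, 0.10 within slide 1 and -0.63 within slide 2. The cause of these moves was not tested. With replicate number as a block, 0 probes passed and 1272 had an unadjusted p under 0.05, against 1030 without it, and no member's call moved. The labels give replicate numbers and no pairing, and the arrays do not settle it. Same-numbered arrays deviated together with r of 0.349, 0.371, 0.144 and -0.060. AZD1480 replicates 1 and 2 were closest to the vehicle array of their own number. AZD1480 replicate 3 was closest to vehicle replicate 4 (0.561) and AZD1480 replicate 4 to vehicle replicate 2 (0.100). The count at an unadjusted p under 0.05 was 622 without vehicle replicate 1, 670 without vehicle replicate 3 and 2434 without AZD1480 replicate 3. Among members, that threshold was met by both Vegfa probes without AZD1480 replicate 2, by the downstream one without AZD1480 replicate 3 and by Pgf without vehicle replicate 4. The gene-level fit has no value for the upstream Vegfa probe, and it had 685 of 19778 genes at that threshold. Signal was lowest for Vegfc, Angpt1 and Pgf, whose processed intensities went down to 101, 133 and 137, and its part in their precision was not tested.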
